A study of Homo sapiens with 61 samples.

Results

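In human U2OS osteosarcoma cells without ASH1L, the DNA carrying H3K4me3 after ultraviolet (UV) light was compared with the DNA under XPC peaks in the same cells. H3K4me3 is trimethylation of lysine 4 of histone H3. The 12 peak lists used were 3 for H3K4me3 and 3 for XPC at each of 1 h and 3 h after irradiation, out of 61 samples in the series, of which 37 have a peak list. They were chosen by genotype, antibody and time as labelled. H3K4me3 regions were the merged peaks of the 3 libraries of a time that were present in at least 2 of them. For each XPC library, the percentage of H3K4me3 bases lying under XPC peaks was divided by the mean percentage at the same regions moved along the chromosome 20 times, by 50 to 500 kb to either side. The shifted positions served only as a denominator.

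ASH1L-/- cells were made with CRISPR/Cas9 and carry deletions in exon 2 and across exons 11 and 12 of ASH1L. Colonies were picked after editing, and how many entered these experiments is not given in the sources used here. These cells received UV-C light at 20 J/m2 and were crosslinked 1 h or 3 h later. Irradiated wild-type (WT) U2OS cells at both times, unirradiated ASH1L-/- cells and unirradiated WT cells entered only for comparison. The control of the XPC libraries was a pool of immunoprecipitates from XPC-/- cells and that of the H3K4me3 libraries was pooled input, so libraries of a group share a control. Libraries of a group are labelled as biological replicates. The 3 XPC libraries of a time were set against the same H3K4me3 regions.

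XPC is the initiating subunit of global-genome nucleotide excision repair, which binds the distorted DNA opposite a lesion and then recruits TFIIH to unwind the helix. UV-C light makes cyclobutane pyrimidine dimers and 6-4 photoproducts at neighbouring pyrimidines, and UV-DDB, whose damage-binding subunit is DDB2, hands such lesions over to XPC. H3K4me3 is a mark of active promoters, where the SET1 and MLL (KMT2) enzymes deposit it. ASH1L is also a SET-domain methyltransferase.

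Reference sequence (hg38) is shown for 6 sites that carried H3K4me3 in all 6 irradiated ASH1L-/- libraries, to let sites covered by XPC in every library be read beside sites touched in none. Promoter stretches are the 200 bases before or close to the start site on the strand of the gene, the others are 200 bases around the H3K4me3 summit on the plus strand, none overlaps an exon, and capitals mark CpG dinucleotides. The first 4 are from regions touched by XPC in 6 of 6 lists and the last 2 from strongly enriched H3K4me3 regions touched in 0 of 6 (fold enrichment 29.9 and 23.1).
CD58 promoter, chr1:116571052-116571251, minus strand: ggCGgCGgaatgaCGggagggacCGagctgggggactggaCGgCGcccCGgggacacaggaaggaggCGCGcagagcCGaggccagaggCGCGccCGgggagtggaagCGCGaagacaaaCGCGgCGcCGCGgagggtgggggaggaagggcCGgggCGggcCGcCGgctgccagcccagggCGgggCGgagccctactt
ISLR2 promoter, chr15:74130336-74130535, plus strand: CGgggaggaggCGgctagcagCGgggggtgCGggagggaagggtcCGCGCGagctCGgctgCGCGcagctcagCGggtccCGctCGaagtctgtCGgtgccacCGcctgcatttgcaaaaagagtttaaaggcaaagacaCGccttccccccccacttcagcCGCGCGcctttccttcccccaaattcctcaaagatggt
CCDC7 intron, chr10:32692734-32692933: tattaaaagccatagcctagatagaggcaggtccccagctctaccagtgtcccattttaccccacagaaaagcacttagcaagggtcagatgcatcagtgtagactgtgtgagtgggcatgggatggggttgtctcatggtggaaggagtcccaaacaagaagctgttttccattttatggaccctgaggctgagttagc
intergenic site nearest to C14orf28, chr14:44745282-44745481: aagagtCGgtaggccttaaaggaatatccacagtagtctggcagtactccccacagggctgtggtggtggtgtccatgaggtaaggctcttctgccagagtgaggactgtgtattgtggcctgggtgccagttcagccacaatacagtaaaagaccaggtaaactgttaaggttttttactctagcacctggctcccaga
TFB1M promoter, chr6:155314510-155314709, minus strand: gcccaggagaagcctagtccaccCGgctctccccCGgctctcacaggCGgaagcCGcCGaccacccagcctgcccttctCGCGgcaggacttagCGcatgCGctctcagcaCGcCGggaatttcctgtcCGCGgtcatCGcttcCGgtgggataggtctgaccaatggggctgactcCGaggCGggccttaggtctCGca
intergenic site nearest to TTLL2, chr6:167423135-167423334: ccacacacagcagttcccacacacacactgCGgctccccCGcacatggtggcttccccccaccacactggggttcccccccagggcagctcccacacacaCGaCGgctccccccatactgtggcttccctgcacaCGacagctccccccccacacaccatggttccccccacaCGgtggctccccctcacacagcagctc
The CD58 stretch held 77.5% G and C with 26 CpG, and the ISLR2 stretch 65% with 19 CpG. The CCDC7 and C14orf28-nearest stretches were poorer, at 49.0% with 0 CpG and 50.5% with 1 CpG. The 2 stretches without XPC were no poorer in G and C than these, at 67.0% with 18 CpG for TFB1M and 67.5% with 6 CpG for the TTLL2-nearest site. Over whole regions, GC was 56.1% at CD58, 62.3% at ISLR2, 44.5% at CCDC7 and 49.9% at the C14orf28-nearest site. The TFB1M region lay below those 4, at 42.6%, and the TTLL2-nearest region above them, at 73.5%. Another region touched in 0 of 6 lists, nearest to GAS6 and not printed, had 49.0% in its stretch and 37.5% over the region. The shifted copies of the TFB1M and TTLL2-nearest regions were also nearly free of XPC peaks, with 1.41% and 1.53% of their bases covered. Of shifted bases 19.1% were covered at the CD58 region, 46.7% at ISLR2, 59.95% at CCDC7 and 23.8% at the C14orf28-nearest region.

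The XPC lists were long and weak. All but 1 held exactly 500000 peaks and 3 h replicate 1 held 326438, covering 165 to 464 Mb of the genome. Their lowest −log10 p was 1.00 to 1.47, between 956 and 40738 peaks per list reached a −log10 p of 2, and 0 to 12 peaks per list passed a q value of 0.05. The list of 1 h replicate 3 held no peak on chromosome X. The H3K4me3 lists held 72984 to 126467 peaks, of which 68762 to 116750 passed that q value. The study lists a read total for each library, and the totals differ among the XPC libraries. They were not used here, and the part of depth in the results was not tested. The covered length of replicates 1, 2 and 3 was 311, 242 and 268 Mb at 1 h and 165, 464 and 293 Mb at 3 h.

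The 6 H3K4me3 lists gave 78487 regions at 1 h and 83432 at 3 h, or 92341 once both times were merged. Of the merged regions, 13921 had a protein-coding start site inside or no more than 2 kb away and are called promoters, 47164 lay in gene bodies and 31256 between genes. An H3K4me3 region was present at 14169 of the 19970 start sites. Promoters of 12 of 16 mesenchymal and osteoblast markers were marked, against 3 of 10 epithelial, 1 of 9 blood and 2 of 8 liver and gut markers. All 9 neuronal markers were marked as well. These counts have no test, and the mesenchymal share is close to that of all start sites.

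XPC peaks covered H3K4me3 regions more than their shifted copies in every irradiated ASH1L-/- library. At 1 h, 20.7%, 17.8% and 14.8% of H3K4me3 bases lay under XPC peaks in replicates 1, 2 and 3, against 13.6%, 11.7% and 11.4% of shifted bases. At 3 h the covered share was 14.6%, 34.05% and 18.1%, against 8.05%, 21.9% and 13.4% of shifted bases. Each library lay above its own denominator, while the shares of H3K4me3 and of shifted bases overlapped across libraries. The mean share was 20.0% ± 7.24 in H3K4me3 regions and 13.3% ± 4.64 in shifted regions (SD, n = 6 libraries), a ratio of 1.51 ± 0.179 with a range of 1.31 to 1.81. On the log2 scale the enrichment was 0.59 ± 0.17 (two-sided exact sign-flip permutation test, p = 0.03125, the smallest that 6 libraries can give). Adjusted over the 4 tests of enrichment, p remained 0.03125.

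**Figure D1:**
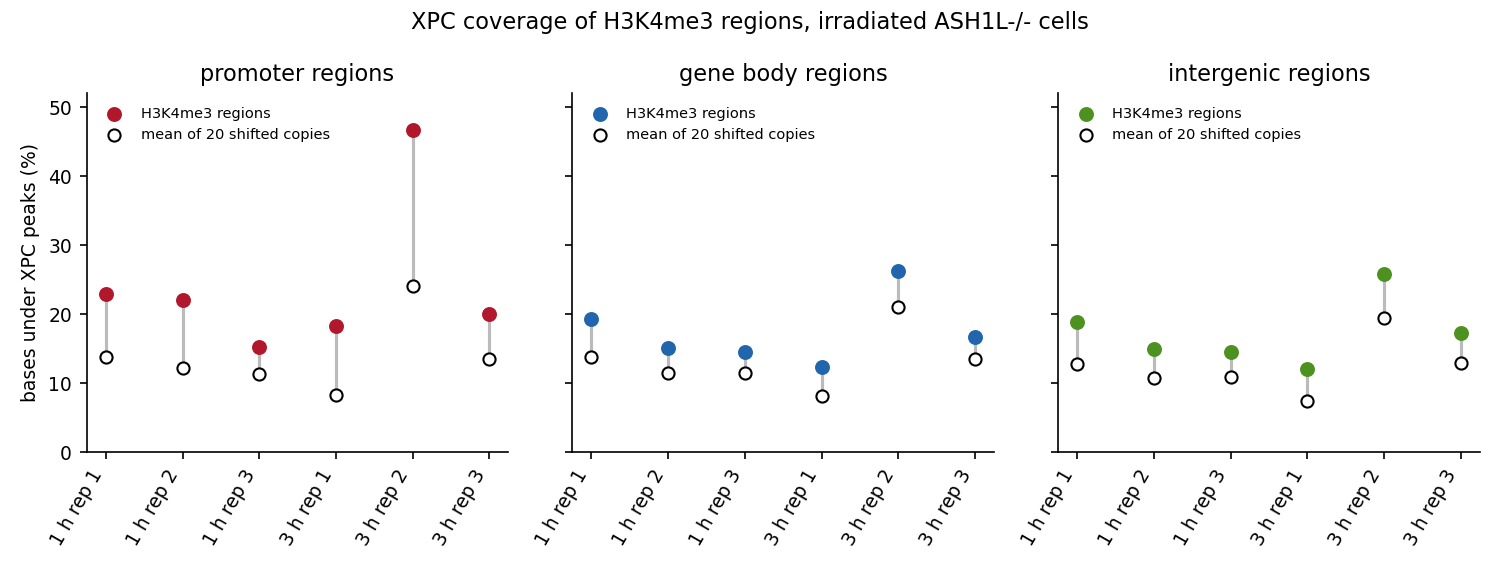
Percentage of bases under XPC peaks in H3K4me3 regions and in their shifted copies, for each of the 6 irradiated ASH1L-/- XPC libraries, by class of region. The H3K4me3 value lay above the shifted value in each library and class, and 3 h replicate 2, the list with the most covered DNA, was highest throughout.

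Promoters, where RNA polymerase II starts, carried the highest overlap. XPC peaks covered 22.95%, 22.01% and 15.3% of promoter H3K4me3 bases at 1 h, against 13.8%, 12.3% and 11.4% of shifted bases. At 3 h they covered 18.3%, 46.7% and 20.1%, against 8.32%, 24.1% and 13.5%. The ratio was 1.74 ± 0.311 (1.34 to 2.198), or 0.78 ± 0.26 on the log2 scale, and was lowest in 1 h replicate 3 and highest in 3 h replicate 1 (6 of 6 libraries above 0, exact sign-flip permutation p = 0.03125, adjusted 0.03125). Gene bodies were covered to 12.3 to 26.3%, against 8.14 to 21.1% of shifted bases, a ratio of 1.33 ± 0.112 (1.23 to 1.52). Intergenic regions were covered to 12.1 to 25.9%, against 7.39 to 19.4%, a ratio of 1.42 ± 0.121 (1.33 to 1.63). Both classes were above their denominator in 6 of 6 libraries (log2 0.40 ± 0.12 and 0.50 ± 0.12, exact sign-flip permutation p = 0.03125 and adjusted 0.03125 for each).

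Within a library the promoters exceeded the gene bodies by 0.38 ± 0.20 and the intergenic regions by 0.28 ± 0.20 on the log2 scale (6 of 6 libraries each, exact sign-flip permutation p = 0.03125, adjusted over 3 tests 0.03125). Intergenic regions exceeded gene bodies by 0.097 ± 0.017 (6 of 6, p = 0.03125, adjusted 0.03125, same exact test). The lead of the promoters depended on the denominator. When only shifted positions of the same class were taken, the enrichment of promoters was 0.14 (exact sign-flip permutation p = 0.0625), and the promoters then lay below gene bodies by 0.29 and below intergenic regions by 0.50 (differences of −0.29 and −0.50, p = 0.03125 each).

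Class was therefore separated from base composition. XPC coverage climbed with the G and C content of DNA up to 60 to 65%, whether or not H3K4me3 was there. Above that it fell in bins without H3K4me3. In 1-kb bins of 25 to 30% GC, 2.67% of H3K4me3 bases lay under XPC peaks, against 1.64% of bases in bins without any H3K4me3 peak. At 40 to 45% GC the values were 15.96% and 10.97%, at 60 to 65% GC 33.9% and 24.5%, and at 70 to 75% GC 36.9% and 19.1%. Marked bins lay above unmarked bins in 6 of 6 libraries in each step over all classes. Among promoters the exceptions were the 25 to 30% step, with 3 of 6 libraries, and the 70 to 75% step, with 5 of 6.

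**Figure D2:**
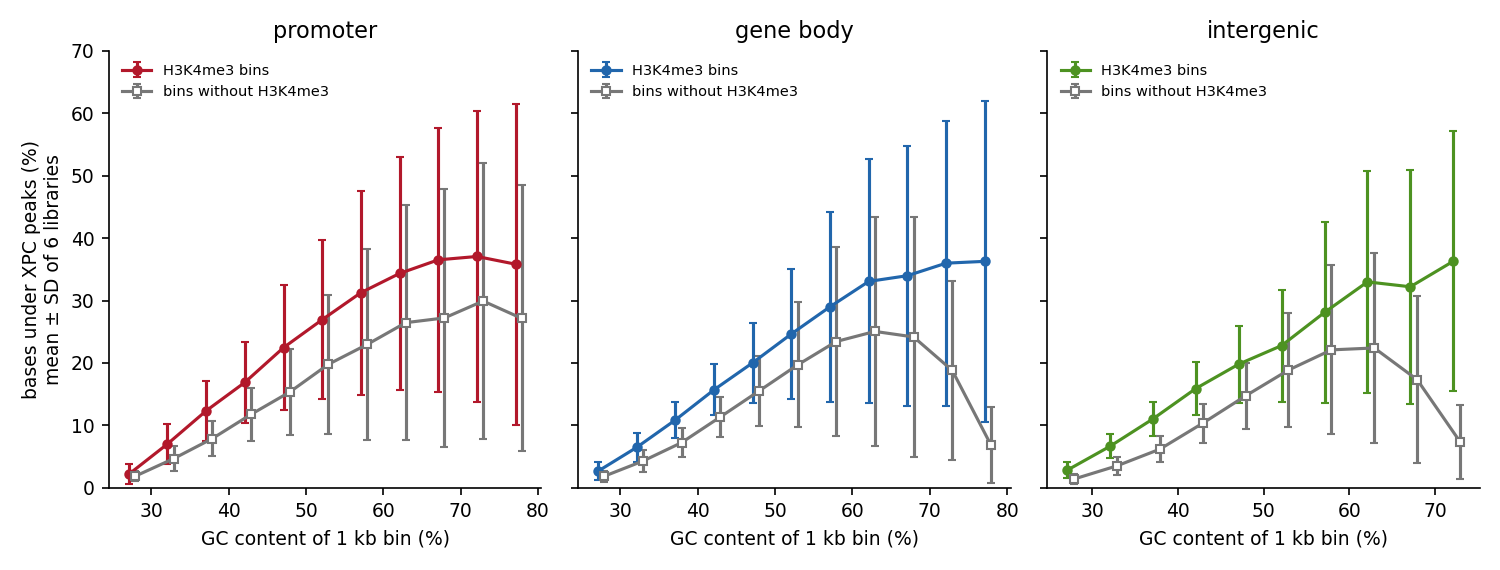
XPC coverage of 1-kb bins with H3K4me3 and of bins of the same class without any H3K4me3 peak, in steps of 5% GC (mean of the 6 irradiated ASH1L-/- libraries). Both curves climbed with GC, and over all classes the marked bins lay above the unmarked bins, at 33.9% and 24.5% in the step of 60 to 65% GC.

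Against unmarked DNA of the same class and GC step, chosen as a denominator after the values were seen, the enrichment was 0.51 ± 0.39 at promoters, 0.47 ± 0.21 in gene bodies and 0.56 ± 0.18 between genes (log2, 6 of 6 libraries each, exact sign-flip permutation p = 0.03125, adjusted 0.03125). The promoter values were 0.80, 0.18 and 0.36 at 1 h and 1.16, 0.35 and 0.22 at 3 h, so they were positive in each library and spread widely. Promoters differed from gene bodies by 0.045 ± 0.19 (higher in 3 of 6, p = 0.5625) and from intergenic regions by −0.053 ± 0.23 (2 of 6, p = 0.62, both exact sign-flip permutation). With shifted positions of the same class that touch no H3K4me3 peak, the enrichment was 0.47 ± 0.32 at promoters, 0.48 ± 0.14 in gene bodies and 0.72 ± 0.16 between genes, again in 6 of 6 libraries (exact sign-flip permutation p = 0.03125 each). The enrichment of each class thus held with these 2 denominators, and the larger value of promoters did not.

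XPC coverage was highest around the centre of the mark in each class. Within 500 bases of a promoter summit of H3K4me3, 30.7% ± 15.9 of bases lay under XPC peaks, against 14.5% ± 5.94 at 9 to 10 kb (SD, n = 6), a ratio of 2.09 ± 0.415 (1.56 to 2.60). Around gene body summits the ratio was 1.30 ± 0.112 and around intergenic summits 1.36 ± 0.110. Start sites with an H3K4me3 region had 32.6% ± 17.2 at the centre and 14.6% ± 6.01 at the flank, a ratio of 2.199 ± 0.437. The 5398 start sites without any H3K4me3 peak had 17.3% ± 9.29 and 12.6% ± 5.32, a ratio of 1.34 ± 0.221. Start sites without the mark thus also lay above their flanks, by a smaller ratio. The profiles have no test and were not matched for GC, so the mark was not separated from the start site here.

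**Figure D3:**
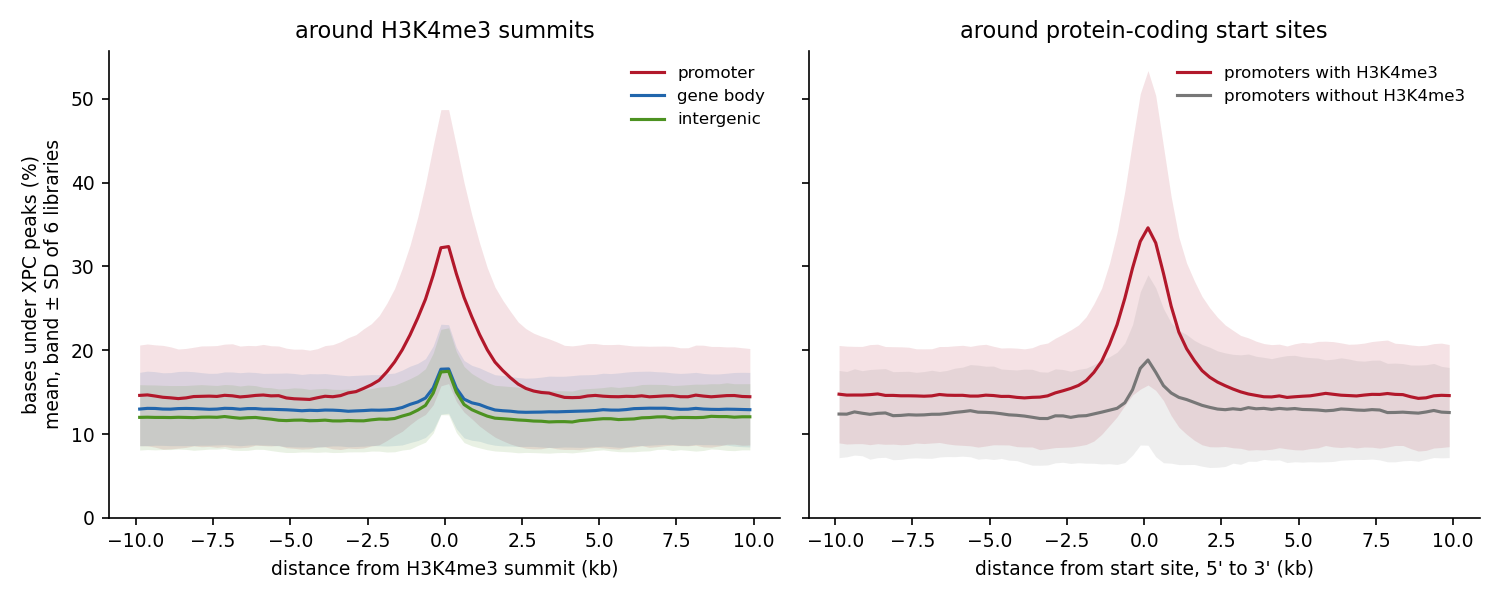
Percentage of bases under XPC peaks against the distance from the H3K4me3 summit or the start site, in kb, as the mean of the 6 irradiated ASH1L-/- libraries. The promoter curve fell off on both sides to its flank level of 14.5%, and start sites without H3K4me3 had a lower centre of 17.3%.

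The difference between wide and narrow H3K4me3 regions had opposite signs over all regions and within promoters, and none passed after adjustment. Over all regions, the enrichment over shifted positions was 0.44, 0.50, 0.57 and 0.62 on the log2 scale in the quartiles of width, narrowest to widest. Within promoters it was 0.91, 0.93, 0.83 and 0.66, so that the widest promoter regions had the lowest value. Gene bodies had 0.38, 0.43, 0.47 and 0.37, and intergenic regions 0.47, 0.53, 0.56 and 0.47, with little difference between the end quartiles. The widest quartile differed from the narrowest by 0.18 ± 0.13 over all regions (higher in 6 of 6 libraries) and by −0.25 ± 0.079 at promoters (lower in 6 of 6). Both had an exact sign-flip permutation p of 0.03125, and an adjusted p of 0.0521 over 5 tests. In gene bodies and between genes the difference was −0.0093 ± 0.047 and −0.0058 ± 0.061 (exact sign-flip permutation p = 0.656 and 0.875).

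For XPC peaks the overlap was larger at greater width in each library, without passing after adjustment. The quartile of widest XPC peaks was enriched by 0.71 ± 0.23 on the log2 scale and the narrowest by 0.25 ± 0.18, a difference of 0.47 ± 0.27 that was positive in 6 of 6 libraries (exact sign-flip permutation p = 0.03125, adjusted 0.0521). Counted as peaks, 13.4% ± 2.67 of the widest XPC peaks touched an H3K4me3 region, against 9.20% ± 1.45 at shifted regions. Of the narrowest, 5.82% ± 1.14 did, against 4.96% ± 0.395.

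**Figure D4:**
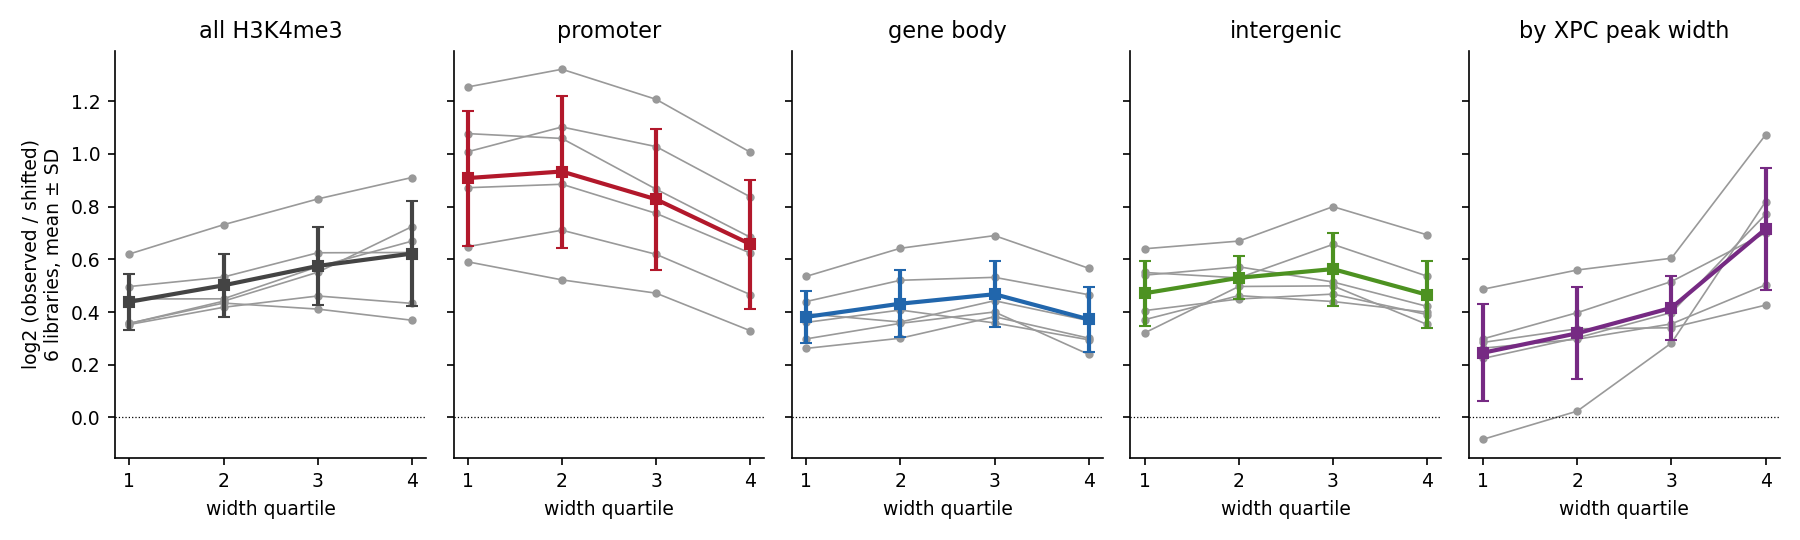
Log2 enrichment of XPC coverage over shifted positions in the quartiles of H3K4me3 region width (within all regions and each class) and of XPC peak width, for each of the 6 irradiated ASH1L-/- libraries with their mean. Promoters had 0.66 in the widest and 0.91 in the narrowest quartile, and XPC peaks 0.71 in the widest and 0.25 in the narrowest.

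Only a small part of XPC peaks lay at the mark. Over all peaks of a list, 8.69% ± 0.994 touched an H3K4me3 region and 6.64% ± 0.440 touched a shifted one. Among the 1000 XPC peaks with the highest −log10 p of each list the shares were 8.47% ± 2.47 and 5.80% ± 0.357, and beyond rank 100000 they were 8.39% ± 0.842 and 6.63% ± 0.491. The strongest and the weakest XPC peaks had overlapping shares across libraries, and their difference was not tested.

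The overlap did not hang on 1 library pairing. All 18 pairs of 1 XPC and 1 H3K4me3 library of the same time gave a positive log2 value over all regions, with a range of 0.38 to 0.98 and a median of 0.63. For promoters the range was 0.44 to 1.19, for gene bodies 0.30 to 0.71 and for intergenic regions 0.39 to 0.84. The pairs share libraries, so they are not 18 independent values. Without 3 h replicates 1 and 2, the lists with the least and the most covered DNA, the enrichment was 0.51 over all regions and 0.64 at promoters.

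The time after UV made no detectable difference. The enrichment over all regions was 0.64 ± 0.21 at 3 h and 0.54 ± 0.13 at 1 h (log2, SD, n = 3 each), a difference of 0.11 ± 0.14 (SE, two-sided exact permutation p = 0.4, where 3 libraries against 3 cannot go below 0.1). At promoters it was 0.89 ± 0.29 at 3 h and 0.67 ± 0.22 at 1 h (difference 0.22 ± 0.21, exact permutation p = 0.4). Gene bodies and intergenic regions differed by 0.0034 ± 0.11 and 0.030 ± 0.11 (exact permutation p = 1 and 0.8). The libraries of the 2 times overlapped in all classes.

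The overlap was present before irradiation. In unirradiated ASH1L-/- cells 43.5%, 21.2% and 20.5% of H3K4me3 bases lay under XPC peaks, against 18.2%, 14.3% and 12.7% of shifted bases, and replicate 1 stood apart. The enrichment was 0.59 ± 0.17 in the 6 irradiated libraries and 0.84 ± 0.37 in the 3 unirradiated ones, a difference of −0.25 ± 0.22 (SE, exact permutation p = 0.179). At promoters the difference was −0.33 ± 0.29 (p = 0.214), in gene bodies −0.21 ± 0.14 (p = 0.0952) and between genes −0.11 ± 0.14 (p = 0.357, exact permutation for each). None passed after adjustment over the 12 tests between groups (adjusted p = 0.6 for each). Irradiated ASH1L-/- cells had no detectable gain of overlap over unirradiated ones.

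Irradiated WT cells had enrichments in the same range. In ASH1L-/- cells the mean was 0.54 (1 h) and 0.64 (3 h), against 0.63 ± 0.29 and 0.68 ± 0.17 in WT cells (log2, n = 3 each). ASH1L-/- differed from WT by −0.069 ± 0.11 over all regions, −0.073 ± 0.17 at promoters, −0.12 ± 0.076 in gene bodies and −0.11 ± 0.087 between genes (SE; exact permutation within time, p = 0.595, 0.68, 0.17 and 0.285; adjusted 0.6 or more). The change with UV in ASH1L-/- minus that in WT was −0.17 over all regions (exact permutation p = 0.659) and −0.21 at promoters (p = 0.694). These tests do not show that the genotypes act alike. Comparisons with irradiated WT used the H3K4me3 regions of WT cells themselves, 91080 at 1 h and 101162 at 3 h. On a larger scale, the genotypes differed in their share of XPC-covered bases. Over all XPC lists, 52 of 601 bins of 5 Mb differed by more than 1 on the log2 scale. The cause was not tested.

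**Figure D5:**
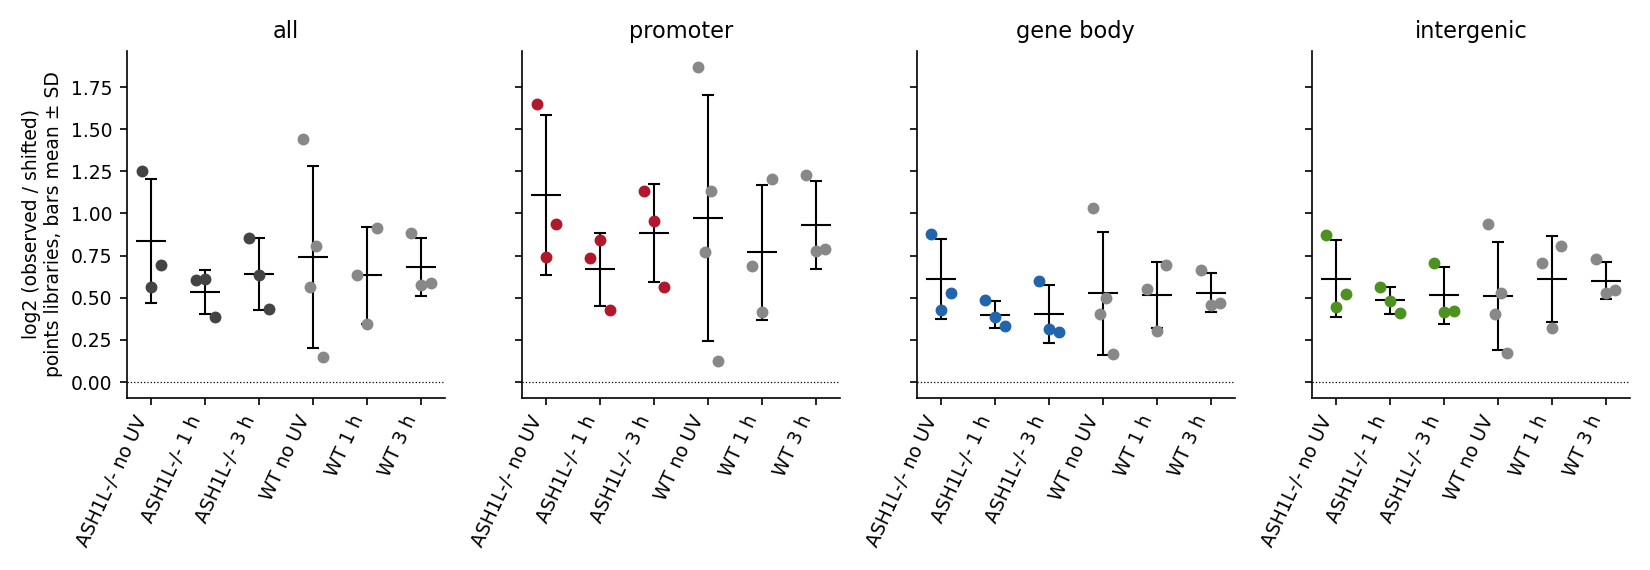
Log2 enrichment of XPC coverage over shifted positions for each XPC library of ASH1L-/- and WT cells, unirradiated or 1 h or 3 h after UV, by class, with group means. Unirradiated libraries spread most (0.56 to 1.25 in ASH1L-/- over all regions), and the irradiated ASH1L-/- and WT libraries overlapped.

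Single regions were then asked for a change in covered length, with limma over the 80066 merged regions covered in at least 3 of 19 XPC lists. No region passed an adjusted p of 0.05 between 3 h and 1 h (percent called 0, with 4425 regions or 5.53% at an unadjusted p under 0.05). That 0 did not hold when any 1 library was left out: 7, 28 and 7 regions passed without 1 h replicates 1, 2 and 3, all lower at 3 h, and 63, 4 and 8 passed without 3 h replicates 1, 2 and 3, all higher at 3 h. None passed between irradiated ASH1L-/- and WT cells (percent called 0, 3649 regions or 4.56% at an unadjusted p under 0.05). Between irradiated and unirradiated ASH1L-/- cells 0 regions were higher and 45 were lower, which is 0.0562% of those tested. Of the 45, 1 was a promoter, 19 lay in gene bodies and 25 between genes. They lay on 17 chromosomes, had a median width of 905 bases and a median change of −0.50 kb, and 27 of them were uncovered in all 6 irradiated libraries. All 45 had every irradiated value below every unirradiated one, as did 2.34% of all regions tested. The count between irradiated and unirradiated cells ran from 6 to 262 when 1 library was left out. It was 6 to 10 without any 1 irradiated library and 162 to 262 without any 1 unirradiated library.

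The largest of these decreases was at an intergenic region 90161 bases from the start site of PTPRT, a receptor-type tyrosine phosphatase (chr20:43280067-43282651). XPC peaks covered 0, 0 and 0 kb at 1 h, 0, 0.298 and 0.399 kb at 3 h, and 1.366, 1.859 and 1.05 kb without UV. All irradiated libraries lay below all unirradiated ones, and the change was −1.31 ± 0.247 kb (SE, limma adjusted p = 0.0326). The next 4 were nearest to ANO5 (−1.27 kb), IGFBP7 (−1.11 kb), TMEM132B (−1.08 kb) and ENSG00000289761 (−1.03 kb), each more than 100 kb from the start site named. The smallest p between times belonged to regions nearest to ZNF577, LRRC2 and IRGM, with 0.468 to 0.881, 0.397 to 0.677 and 0.355 to 0.507 kb at 3 h and 0 kb in all 3 libraries at 1 h (limma adjusted p = 0.103 each). The smallest p between genotypes belonged to a region 84646 bases from the start site of PSMB1, a proteasome subunit, with 0 kb in all 6 irradiated ASH1L-/- libraries and 0.628 to 0.762 kb in the 6 WT libraries. The unirradiated ASH1L-/- libraries had 0 kb there as well, and the difference did not pass (limma adjusted p = 0.536).

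With all deposited XPC peaks, many H3K4me3 regions were touched in several libraries. Of the promoter regions 70.1% were touched by XPC peaks in at least 4 of 6 libraries, against 47.6% of shifted copies. The shares were 24.7% against 18.1% in gene bodies and 21.2% against 14.3% between genes. In all 6 libraries 32.1% of promoters were touched, against 15.0% when shifted. These counts have no test, and they rest on weak peaks. With peaks of −log10 p of at least 2 alone, 8 of the 92341 regions were touched in at least 4 libraries (0.0087%, against 0.0046% of shifted copies). Among promoters 2 of 13921 were (0.0144%), which was not above the shifted share of 0.0178%. With the strongest 100000 peaks of each list 9.86% of promoters were, against 4.24% when shifted.

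Of the 12985 promoters marked in all 6 H3K4me3 lists, 4435 were touched in 6 of 6 XPC lists and 444 in 0 of 6. The 4435 had a median width of 3961 bases and a median GC content of 52.4%, against 2036 bases and 50.9% for the 444. Their shifted copies differed more, with a median of 16.8% of bases under XPC peaks at the 4435 and 0.674% at the 444, so the surrounding megabase differed along with the promoter itself. Across the 13921 promoter regions, mean XPC coverage had a Spearman correlation of 0.41 with GC content, −0.41 with the share of TT and AA dinucleotides, −0.06 with width and −0.16 with H3K4me3 fold enrichment. Across the 47164 gene body regions the correlation with GC was 0.36 and across the 31256 intergenic regions 0.34. These are correlations over regions, which share libraries and neighbourhood.

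Chromosomes differed in the same way. XPC peaks covered 33.6% of H3K4me3 bases on chromosome 15 and 7.38% on chromosome 13, against 25.5% and 3.602% of shifted bases, as means of the 6 libraries. Between these chromosomes the ratio to shifted positions ran the other way, with a log2 enrichment of 0.40 ± 0.099 on chromosome 15 and 1.10 ± 0.47 on chromosome 13. Chromosome X, without a peak in 1 h replicate 3, had lower coverage still (5.74%, log2 1.34). The lowest log2 value was on chromosome 19 (0.35), at a coverage of 18.3%. Of 6998 regions of at least 500 bases in all 6 H3K4me3 and all 6 XPC lists, 139 had mean coverage of 80% or more. Of the 139, 40 lay on chromosome 10 and 36 on chromosome 15. These chromosomes hold 5.91% and 3.70% of all 92341 regions, and their shares of the 6998 are not given here.

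The most fully covered promoters were taken from those marked and touched in every library. The promoter of ENSG00000273025 (chr15:72319698-72321023), in a region that also overlaps CELF6, was covered to 100% in all 6 libraries, against 30.7% when shifted. That of PPIB, a cyclophilin of the endoplasmic reticulum, was covered to 99.5% ± 1.19, against 49.2%. At CD58, a ligand of CD2 on T cells, coverage was 89.8%, 96.2% and 82.6% at 1 h and 100% in all 3 libraries at 3 h, against 19.1% when shifted (chr1:116568687-116572251). CD58 had the largest excess over its shifted copies among promoters, and the GC-rich stretch printed above belongs to this region. DNAJB6, a cochaperone of HSP70, had 93.9% ± 11.4 and ISLR2, the second promoter printed above, 93.0% ± 12.6. TSPAN33, a tetraspanin, had 92.7% ± 9.54, and DAPK2, a calmodulin-dependent death-associated kinase, 92.7% ± 11.8. JCAD, a junctional protein of endothelium, had 91.4% ± 7.89, and CA12, a carbonic anhydrase, 91.1% ± 13.4. GRK6, a G protein-coupled receptor kinase, had 88.8% ± 27.4, with 33.0% in 3 h replicate 1 and 100% in the other libraries.

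Among gene body regions the most fully covered lay in CCDC7 (99.7% ± 0.649), FBXL22 (98.9% ± 2.77) and ALDH1A2, a retinaldehyde dehydrogenase (95.8% ± 8.44). They were followed by 2 whose nearest start sites were those of LEP and LYZL2. The CCDC7 region, whose CpG-free stretch is printed above, was the only one of these 20 named regions without an H3K4me3 peak before UV in any unirradiated ASH1L-/- library. The most fully covered intergenic regions were nearest to C14orf28 (98.0% ± 4.80), NRP1 (97.9% ± 5.13), ZNF248 (97.5% ± 5.97), FZD8 (93.0% ± 15.0) and ANXA2 (92.8% ± 12.8). Of the 20 regions 8 lay on chromosome 15 and 6 on chromosome 10. Their shifted copies were covered to 19.1 to 67.9% with a median of 49.9%, against a median of 11.3% for all regions, so most of them lay in neighbourhoods rich in XPC peaks. Ranked by the excess over shifted copies, a ranking added after the values were seen, CD58 was followed by RASGRP1, a Ras activator of lymphocytes (85.6% ± 18.95 against 14.2%), ENSG00000273025 and SESN3, a sestrin (77.5% ± 27.7 against 9.45%).

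At the promoters of the repair pathway coverage was near or below that of marked promoters at large. As background, 76.0% of the 14169 marked start sites had XPC in at least 4 of 6 lists, with a median of 23.4% of bases covered and 13.3% in shifted copies. Of 14 genes listed under damage recognition and verification 11 did (78.6%), with a median coverage of 17.1%. That list also holds ASH1L, MORF4L1, SSRP1 and SUPT16H, which are described separately below. The XPC promoter itself was covered to 25.2%, 21.2% and 42.2% at 1 h and 19.9%, 69.6% and 42.5% at 3 h, against 28.5% when shifted. The XPC-/- cells of the control were made with guides against the first exons of XPC. Whether this altered peak calls at that promoter was not tested. DDB2, the damage-binding subunit of UV-DDB, had 31.7%, 19.4% and 0% at 1 h and 30.2%, 49.8% and 31.0% at 3 h, against 9.86% when shifted. The shifted value of a promoter is the mean over all 6 libraries, whose own shifted shares differed. Against that mean the XPC promoter lay partly below and partly above, and that of DDB2 above in 5 of 6 libraries. XPA, which verifies damage within the excision complex, had 35.5% ± 22 and RBX1, the RING subunit of the UV-DDB ubiquitin ligase, 30.1% ± 24.4.

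The ASH1L promoter was covered to 26.3% ± 19.5, against 18.4% when shifted. The deleted exons lie outside it, so these lists do not check the knockout. Of the FACT histone chaperone, SSRP1 had 26.1% ± 32.7 with 89.4% in 3 h replicate 2 alone, and SUPT16H had 7.19% ± 11.9 with coverage in only 2 of 6 libraries. MORF4L1, the chromodomain partner of ASH1L, had 16.4% ± 9.55, against 16.2% when shifted.

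Of 8 genes of transcription-coupled repair 4 had XPC in at least 4 lists, with a median of 12.6%. ERCC6, the CSB translocase, stood out within this list, with 63.1%, 27.6% and 62.9% at 1 h and 59.5%, 89.7% and 32.1% at 3 h, against 11.1% when shifted. ELOF1, an elongation factor, had 15.0% ± 9.45. Of 12 marked genes of TFIIH and the excision nucleases 9 did, with a median of 16.1%. The TFIIH subunits GTF2H4, ERCC2 and GTF2H3 led with 41.9% ± 31.6, 32.04% ± 14.6 and 28.2% ± 16.7, and ERCC5, the 3′ nuclease XPG, had no covered base in any of the 6 libraries although its promoter was marked in all 6 H3K4me3 lists. Its shifted copies were nearly free of XPC peaks as well, with 0.257% of bases covered. Of 18 gap-filling genes 12 did, with a median of 20.8%. The DNA polymerase subunits POLD4, POLE and POLD1 led with 38.9% ± 21.96, 35.5% ± 27.0 and 32.8% ± 35.6. RPA3, a subunit of the single-strand binding protein RPA, had 0%, against 5.33% when shifted. The RPA3 region was 606 bases wide and was present in 5 of the 6 H3K4me3 lists. Mean coverage lay above that of shifted copies at 83.4% of all marked start sites. It did so at 12 of 14 genes of the damage recognition list, which includes ASH1L, MORF4L1, SSRP1 and SUPT16H. The counts were 6 of 8 for transcription-coupled repair, 9 of 12 for TFIIH and the nucleases and 15 of 18 for gap filling.

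Other lists are given as counts beside the same background of 76.0%. Of 27 marked immediate early and stress genes 24 had XPC in at least 4 of 6 lists, with a median of 26.2% against 13.7% in shifted copies. DUSP1, a MAP kinase phosphatase, was covered to 61.5% ± 22.03, NR4A3, an orphan nuclear receptor, to 50.3% ± 27.8 and EGR1, a zinc finger factor, to 48.0% ± 22.6. All 27 lay above their shifted copies, as did 23 of 26 p53 targets, 19 of 27 replication and cell cycle genes, 60 of 74 ribosomal protein genes, 17 of 19 genes of H3K4 methylation and demethylation, 23 of 27 HOX genes and 29 of 41 histone genes, beside the background of 83.4%. Of 26 p53 targets 24 had XPC in at least 4 of 6 lists, with a median of 24.4% against 15.8%, led by SPATA18 (55.8% ± 48.3) and TP53I3 (41.4% ± 36.8). The SPATA18 region was only 483 bases wide and was present in 2 of the 6 H3K4me3 lists. Of 27 replication and cell cycle genes 26 did, with a median of 20.1%, led by E2F2 (46.9% ± 20.5), CCNE1 (38.7% ± 31.6) and MCM5 (37.3% ± 27.1).

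Of 74 ribosomal protein genes 68 did, with a median of 21.2% against 16.1%, and RPL23A (64.6% ± 21.2) was among the highest. Of 19 genes of H3K4 methylation and demethylation 16 did, with a median of 24.4% against 12.97%. WDR5, the shared scaffold of the MLL complexes, had 45.9% ± 31.6, KMT2B, an MLL enzyme, 40.7% ± 26.9, and PRDM9, the meiotic H3K4 methyltransferase, 37.9% ± 40.4. Of 27 marked HOX genes 17 did, with a median of 22.5%, led by HOXB7 (43.2% ± 24.8), HOXC8 (37.2% ± 24.8) and HOXB9 (33.5% ± 25.02). Of 41 marked replication-dependent histone genes, which share 25 regions, 32 did, with the lowest median of these lists at 8.05%, against 5.00% in shifted copies. The region shared by H2AC20, H2AC21 and H2BC21 had the highest value among them (32.9% ± 26.8).

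Regions that already carried H3K4me3 before UV had higher values than regions found only after it in each library, at the edge of the threshold. The 57652 regions marked before UV had a log2 enrichment of 0.60 ± 0.18, and the 18905 regions without any peak in the unirradiated ASH1L-/- lists had 0.28 ± 0.15. The difference was 0.32 ± 0.19 over all regions, 0.24 ± 0.085 at promoters, 0.21 ± 0.12 in gene bodies and 0.15 ± 0.12 between genes. It was positive in 6 of 6 libraries in each (exact sign-flip permutation p = 0.03125, adjusted over 8 tests 0.05, which is not below the threshold of 0.05). The regions marked before UV had a median width of 1331 bases and the others 485 bases, and this comparison was added after the values were seen. Regions ranked by H3K4me3 fold enrichment differed by 0.19 ± 0.18 between the strongest and the weakest quartile over all regions (5 of 6 libraries, adjusted p = 0.125) and by −0.29 ± 0.15 at promoters (lower in 6 of 6, adjusted p = 0.05, exact sign-flip permutation).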

How the data were processed

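The authors trimmed 100-base single-end reads with Trim Galore 0.6.5, aligned them to hg38 lacking chromosome Y (BWA 0.7.17-r1188), filtered them with SAMtools 1.7, Picard and bedtools 2.29.2, and called peaks with MACS2 2.2.7.1 for each library on its own against a pooled control. H3K4me3 peaks were narrow, against pooled input, and XPC peaks broad, against pooled XPC immunoprecipitates of XPC-/- cells. The study itself used the XPC peaks only to check replicability, and otherwise worked with continuous signal. DNA was treated with a lesion repair mix before library preparation. A p threshold of 0.01 is stated, yet the deposited XPC lists hold weaker peaks and mostly end at 500000, so list lengths were not set against each other. The deposited columns used are start and end, which are positions (other), the fold enrichment over the control (a ratio), the −log10 p and the −log10 q, all as the authors' peak caller gave them. They describe 1 library against its control and carry no spread.

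Regions, classes and start sites (19970 genes, GENCODE 44, MANE transcripts for 19016 and Ensembl canonical for 954) were built with Python 3.11.15, numpy 2.4.6, pandas 2.3.3 and scipy 1.17.1, and plotted with matplotlib 3.10.9. A region within 2 kb of a protein-coding start site was a promoter, otherwise one in a gene was gene body, otherwise intergenic. Shifted positions were kept only in 50-kb bins holding a peak of at least 1 of the 19 XPC lists. The replicate was the XPC library. Log2 ratios were tested by exact sign-flip and exact permutation tests, two-sided, adjusted by Benjamini and Hochberg within families of 4, 3, 5 and 12 tests. An exact permutation test of 6 libraries against 3 cannot go below p = 0.0119. Genotypes were exchanged within time in 400 arrangements. Covered length per region (kb) was fitted with limma 3.58.1 (R 4.3.3, statmod 1.5.0; trend and robust) on group means of all 19 XPC lists. Both procedures were tested on simulated data. The study used analysis of variance, which was not used with 3 libraries a group. Reads, coverage and the study's read totals per library were not used here.

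Named were the 10 promoter, 5 gene body and 5 intergenic regions of at least 500 bases with the highest mean coverage among those in all 6 H3K4me3 and all 6 XPC lists, the promoters of ASH1L, MORF4L1, XPC, DDB2, SUPT16H and SSRP1, up to 3 members of each gene list by coverage, and per limma contrast the 5 largest changes each way that passed or the 3 smallest p. Members ERCC5 and RPA3 and the ranking by excess over shifted copies were added after values were seen, and some genes the rule names are not reported. The peak lists, gene lists and rules were chosen with earlier results of these data known. Alternatives were other shift distances and denominators, peak and region thresholds, overlap measures, a promoter window of 1 kb, left-out libraries, and a replicate block. Another left out chromosome X together with the 5-Mb bins that differed between genotypes in XPC coverage.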

Additional observations from a re-analysis of the deposited data

Results flagged for a closer look

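Of 46 sets of 6 library values checked, 8 held a library far from the other 5. For a single set chance alone gives about 1 in 20. The sets come from the same 6 libraries and from nested groups of regions, so the count of 8 cannot be set against that rate. All but 1 of the 8 were XPC 3 h replicate 2 of irradiated ASH1L-/- cells, the list with the most covered DNA at 464 Mb. In that library the share of H3K4me3 bases under XPC peaks was 34.05% over all regions, 38.1% in the widest quartile, 46.7% at promoters, 53.4% in the narrowest and 40.3% in the widest promoter quartile. Its shifted shares stood apart as well, at 24.1% for promoters and 26.5% for the narrowest promoter quartile, so numerator and denominator moved together, and its ratios were not far from the others. The remaining one was XPC 3 h replicate 1, the shortest list, whose coverage at gene body summits was 1.51 times that of the flank. The part of list length in these values was not tested.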

How the results depend on the processing

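The enrichment of XPC over H3K4me3 regions stayed positive under every alternative run, in all regions and in each class. It passed in each too, except at promoters against shifted positions of the same class (0.14) and where an XPC library was left out, since 5 libraries cannot give an exact p below 0.0625. The values without 3 h replicates 1 and 2 have no test. Leaving out 1 XPC or H3K4me3 library gave 0.53 to 0.63 over all regions, 0.71 to 0.85 at promoters, 0.36 to 0.43 in gene bodies and 0.46 to 0.55 between genes. The same gave 0.32 to 0.43 for promoters minus gene bodies, 0.23 to 0.33 for promoters minus intergenic regions (which also missed the threshold without H3K4me3 1 h replicates 2 or 3) and 0.092 to 0.12 for intergenic regions minus gene bodies. The lead of promoters turned with same-class shifts (−0.29 over gene bodies, −0.50 over intergenic regions). With unmarked shifts of the same class, added after the data were seen, it was −0.012 and −0.25, and with unmarked bins of the same class and GC, also added then, 0.045 and −0.053. Intergenic minus gene body regions then gave 0.24 and 0.098 and no longer passed. Promoters minus intergenic regions also missed the threshold with XPC peaks of −log10 p of at least 2 (0.25), H3K4me3 regions in all 3 libraries (0.24), H3K4me3 fold enrichment of at least 5 (0.14) and a touch of 1 base (0.068). The cause was not tested.

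Width depended on the measure. The widest minus the narrowest quartile passed with regions in all 3 libraries (promoters −0.29, gene bodies −0.16, intergenic −0.21, XPC peaks 0.54) and with a touch of 1 base (−0.36, −0.10 and −0.11 for the same classes). With fold enrichment of at least 5 it was −0.18 over all regions, which reversed the sign, −0.27 at promoters, −0.28 in gene bodies and 0.68 for XPC peaks. With 50% of bases covered it was 0.54 over all regions, and 0.23 in gene bodies and 0.19 between genes, which reversed the sign. The part of the overlap measure itself in these values was not tested. With a library left out the quartile differences ran from 0.14 to 0.22 over all regions, −0.27 to −0.22 at promoters, −0.054 to 0.025 in gene bodies, −0.039 to 0.017 between genes and 0.38 to 0.54 for XPC peaks.

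No difference between times, between irradiated and unirradiated or between genotypes passed under any of the 108, 132 and 156 alternatives (smallest adjusted p 0.343, 0.286 and 0.286, exact permutation). The alternatives for time could not have passed, because exact permutation of 3 libraries against 3 or fewer cannot go below p = 0.1. With a library left out the ranges over all regions were −0.00056 to 0.21 for time, −0.39 to −0.040 for UV and −0.14 to 0.0018 for genotype. At promoters they were 0.093 to 0.38, −0.52 to −0.063 and −0.16 to 0.036. In gene bodies they were −0.095 to 0.058, −0.30 to −0.076 and −0.17 to −0.077, and between genes −0.069 to 0.099, −0.20 to 0.016 and −0.18 to −0.057. Replicate numbers did not pair the libraries (correlation of deviations −0.132 to 0.126 for 30 pairs of equal number, 2 of them above 0.1). Under a replicate block the differences keep their values, such as −0.21 for UV in gene bodies (exact permutation p = 0.037, adjusted 0.356), and no call between groups changed, while limma called 31 regions lower after UV in place of 45. Without the block, scaled covered length gave 11 lower after UV and 21 between genotypes (10 higher, 11 lower), regions covered in at least 1 library gave 13 between times, and peaks of −log10 p of at least 2 gave 0 after UV. With a library left out the counts were 4 to 63 for time, 6 to 262 for UV and 0 for genotype.

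Regions touched in at least 4 lists numbered 28013, of which 9754 promoters, 11644 gene body and 6615 intergenic. In at least 5 lists 16783 were touched (6106 gene body and 3142 intergenic), and in all 6 lists 7937 (4469 promoters, 2392 gene body and 1076 intergenic). The strongest 100000 peaks of each list gave 2298 (1372, 603 and 323), and peaks of −log10 p of at least 2 gave 8 (2, 2 and 4). In 4 of 5 lists, with a list left out, 19325 to 21578 were touched, of which 7888 to 8539 promoters, 7444 to 8432 gene body and 3993 to 4607 intergenic. The lists hold called peaks without depth, most XPC peaks are weak, and the UV groups hold 3 unirradiated libraries of which 1 stands apart, so small changes were not detectable.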
